A study of Mus musculus with 4 samples.

Results

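The accessible chromatin around 9 genes grouped as TGF-β growth arrest and Id genes was examined in EpRas cells. They were the 4 Id genes (Id1, Id2, Id3 and Id4), the cyclin-dependent kinase inhibitor genes Cdkn1a, Cdkn1b, Cdkn2a and Cdkn2b, and Myc. The members were chosen by gene and position, and comprised every FAIRE-positive region that overlapped the gene body or the 50 kb upstream of the transcription start site (TSS) in mm10. There were 26 such regions among 35796 in all, after overlapping peaks of the 4 libraries had been merged. In FAIRE-seq, chromatin is fixed and sheared and the DNA not bound up with protein is recovered and sequenced, and a FAIRE-positive region is a stretch where such fragments pile up.

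EpRas cells are EpH4 mouse mammary gland epithelial cells that express an active H-Ras, which all 4 groups carried. All cells were taken at day 4 of a single line. The first group received control siRNA (siControl) and was left untreated, and the second received siControl and TGF-β3 at 1 ng/ml. The other groups received the same TGF-β treatment with either of 2 sets of siRNAs (set 1 and set 2) that target Etv4 and Etv5, both of the ETS family of transcription factors. One peak list was deposited per group. No replicate spread can be had from them, and the comparisons set single lists side by side without testing a condition. The siControl list with TGF-β serves as an end of each of the 3 comparisons, which are therefore not independent of each other. In bulk chromatin, fewer cells with an open region and less opening in each cell cannot be told apart.

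Id proteins are helix-loop-helix factors without a DNA-binding basic region. They pair with E proteins and hold them off DNA, which keeps cells dividing and undifferentiated, and their genes are known targets of BMP and TGF-β signalling through Smad proteins. The growth arrest by TGF-β in epithelial cells is known to involve induction of Cdkn2b and Cdkn1a, whose products inhibit cyclin-dependent kinases, and repression of Myc, a driver of cell growth.

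The sequences below are shown because each lies under a region on which a result turns. Each covers 200 bases around the summit on the + strand of mm10, 5′ to 3′, read from the GRCm38 reference of RefSeq. Capitals mark matches on either strand to any of 7 motifs: the ETS core CCGGAA, the AP-1 site TGANTCA, the Smad palindrome GTCTAGAC, the GC-rich Smad element GGCGCC, the RUNX site TGTGGT, the E-box CACGTG and the p53 half-site. The Id1 sequence is the promoter region that was called in neither siEtv4/5 library. The Id2 sequence is the distal region with the highest fold enrichment among all members, and the Id3 sequence is the upstream region that was strongest with set 1. The Id4 sequence is the promoter region absent from the untreated list. The Cdkn1a sequences are the region at the start of the neighbouring Trp53cor1 gene and the intronic region called in every library. The Myc sequence is the region upstream of Myc called in every library.
Id1 1.0 kb upstream, chr2:152735131-152735330: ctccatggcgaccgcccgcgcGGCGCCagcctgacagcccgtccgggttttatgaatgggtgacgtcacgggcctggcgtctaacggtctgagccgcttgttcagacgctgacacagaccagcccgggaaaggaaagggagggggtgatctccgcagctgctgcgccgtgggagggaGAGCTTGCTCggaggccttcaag
Id2 13383 bp upstream, chr12:25110423-25110622: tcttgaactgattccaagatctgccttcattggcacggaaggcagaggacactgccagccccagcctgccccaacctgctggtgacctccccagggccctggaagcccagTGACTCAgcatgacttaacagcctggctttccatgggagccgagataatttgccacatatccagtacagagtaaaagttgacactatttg
Id3 19.9 kb upstream, chr4:136123465-136123664: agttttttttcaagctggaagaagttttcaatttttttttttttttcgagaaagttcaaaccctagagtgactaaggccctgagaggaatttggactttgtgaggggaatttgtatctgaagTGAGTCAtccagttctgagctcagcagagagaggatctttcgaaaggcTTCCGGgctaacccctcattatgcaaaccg
Id4 0.4 kb upstream, chr13:48260776-48260975: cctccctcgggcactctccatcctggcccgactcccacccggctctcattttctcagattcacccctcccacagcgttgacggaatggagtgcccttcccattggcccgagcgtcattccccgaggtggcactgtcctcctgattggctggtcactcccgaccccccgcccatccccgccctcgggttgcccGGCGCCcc
Cdkn1a 11.9 kb upstream, chr17:29079024-29079223: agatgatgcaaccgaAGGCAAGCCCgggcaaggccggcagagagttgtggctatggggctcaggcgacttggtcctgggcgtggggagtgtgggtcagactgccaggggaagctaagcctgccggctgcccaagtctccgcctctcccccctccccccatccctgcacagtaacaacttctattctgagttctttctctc
Cdkn1a 4.6 kb downstream of the TSS, chr17:29095435-29095634: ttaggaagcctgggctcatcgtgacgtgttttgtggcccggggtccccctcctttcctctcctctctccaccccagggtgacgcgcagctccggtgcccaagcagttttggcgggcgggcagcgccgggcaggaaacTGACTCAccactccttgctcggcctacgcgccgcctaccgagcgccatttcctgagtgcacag
Myc 1.9 kb upstream, chr15:61983425-61983624: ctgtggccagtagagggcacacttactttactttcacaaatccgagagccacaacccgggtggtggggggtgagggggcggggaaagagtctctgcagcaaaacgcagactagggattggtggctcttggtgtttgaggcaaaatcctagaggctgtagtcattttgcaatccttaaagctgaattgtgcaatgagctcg

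A match to a motif says only that these letters stand in the window. Within 300 bases around the middle of each region, the AP-1 site was found in 8 of the 26 member regions (30.8%) and in 40.9% of all regions. It stood in 7 of the 11 member regions more than 2 kb from any TSS, beside 52.6% of all such regions. The GC-rich Smad element was found in 7 member regions (26.9%) and in 7.76% of all regions. Of these, 5 were among the 15 member regions within 2 kb of a TSS, where 17.1% of all such regions had it, and 2 were among the 11 distal ones, where 3.17% had it. The 7 regions were those of Id1 at 1.0 kb upstream, Id2 at 1.0 kb downstream of the annotated TSS, Id3 at 3.0 kb upstream, Id4 at 0.4 and 33.3 kb upstream, and Cdkn1b at 0.1 and 22.0 kb upstream. No member region held the Smad palindrome, which was present in 0.332% of all regions. The ETS core was found in 2 member regions (7.69% beside 12.3% of all regions). It stood in 1 of the 15 within 2 kb of a TSS, beside 27.3% of all such regions, and in 1 of the 11 distal ones, beside 5.01%. RUNX was found in 5 (19.2% beside 26.1%), the E-box in 1 (3.85% beside 6.03%) and the p53 half-site in 4, beside 9.57% of all regions. The member regions were richer in G and C, with a median of 60.2% against 49.7%, and more of them lay within 2 kb of a TSS, 57.7% against 32.8% of all regions.

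The 4 lists were of unequal length, with 22247 regions in the untreated siControl library, 28754 with TGF-β, and 22516 and 14925 in those of set 1 and set 2. The estimated depth was 15.3, 16.3, 17.3 and 20.7 M reads in the same order, so the shortest list came from the deepest library. The epithelial identity of the line was checked by promoter regions. Of the epithelial markers Cdh1, Epcam, Krt8 and Krt18, 4 had a promoter region in the untreated list and 2 in each of the others, and of 3 lymphoid and 2 erythroid markers none had one in any list.

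The member regions numbered 17 in untreated siControl cells and 22 with TGF-β, and each siRNA set had 13. Id1 and Id3 held the most with TGF-β, and Cdkn2a held none in any library. Id1 had 4, 6, 0 and 1 regions in the order untreated, TGF-β, set 1 and set 2, which was the widest spread of any member. Id3 had 3, 5, 4 and 4, Id2 had 2, 2, 2 and 1, and Id4 had 1, 2, 1 and 1. Cdkn1a had 5, 4, 3 and 2, and Cdkn1b had 1, 2, 1 and 2. Cdkn2b had 0, 0, 0 and 1, and Myc had 1, 1, 2 and 1. Over the windows of all 21938 protein-coding genes the median was 1 region in each library, and 34.8%, 31.7%, 35.8% and 44.8% of windows had none. When the same number of regions was taken from the top of every list, the member regions with TGF-β numbered 8 and those with set 2 remained 13, so the order of the libraries in these counts depended on the length of the lists.

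**Figure D1:**
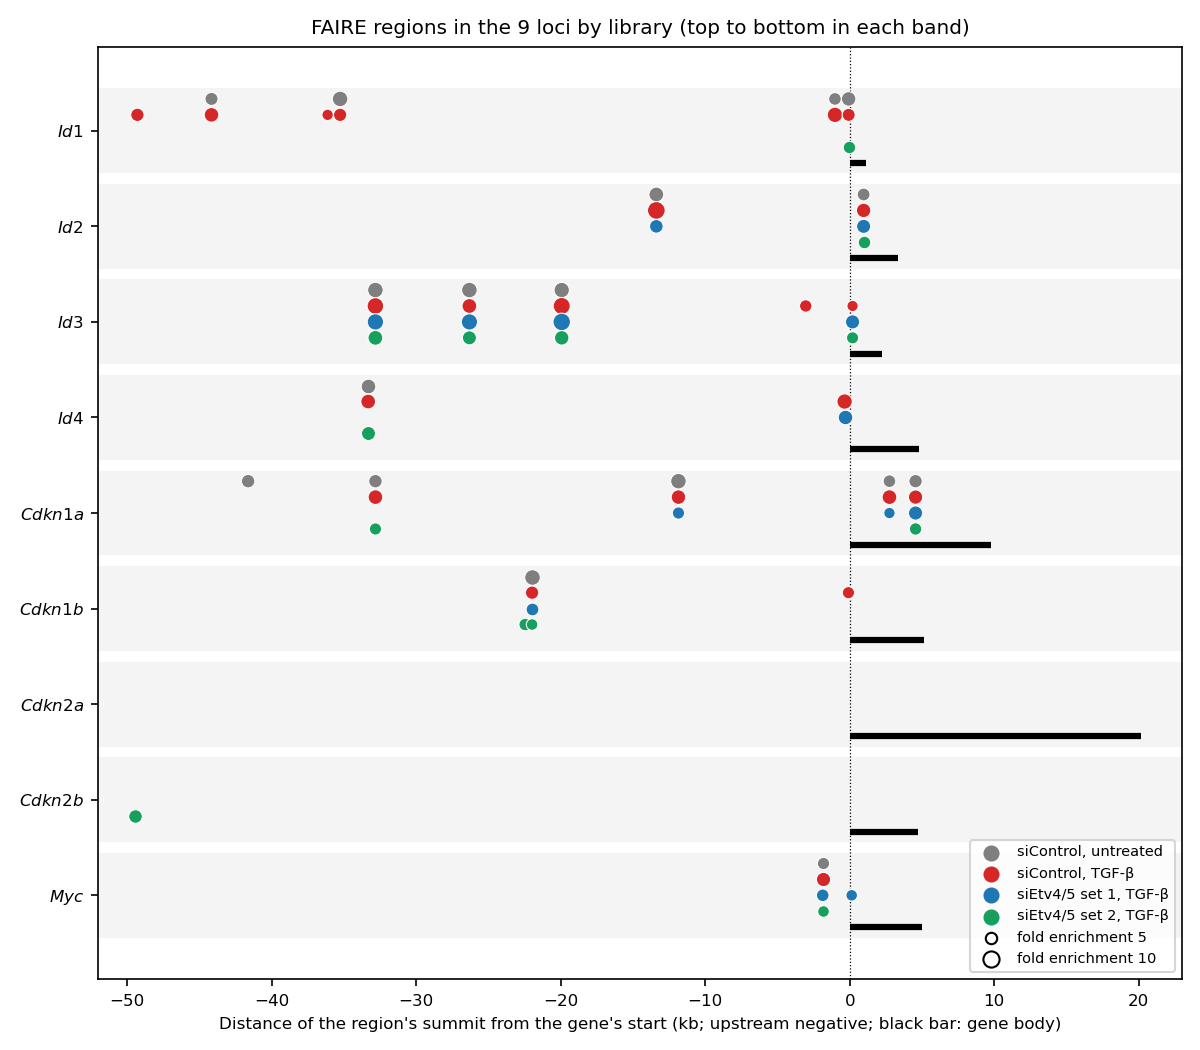
FAIRE-positive regions of the 9 loci by distance of the summit from the gene's TSS (kb, upstream negative). Each band holds the 4 libraries from top to bottom as untreated siControl, siControl with TGF-β, set 1 and set 2, the area of a point is its fold enrichment, and the black bar is the gene body; Id1 has 6 points with TGF-β and none with set 1, and Cdkn2a has none.

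A region was called in all 4 libraries in 7 of the 26 cases, beside 29.6% of all regions, and in a single library in 8 cases (30.8%, beside 31.5% of all regions). The 7 were a region of Id2 near its second TSS, 3 upstream of Id3, and 1 each at Cdkn1a, Cdkn1b and Myc. No region of Id1 or Id4 was called in all 4.

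The level of a region is given as the deposited fold enrichment, the fragments over the summit divided by the local background, each after adding 1. The fragments themselves were recovered from that ratio and the deposited p-value and are given as counts. Across the member regions the fold enrichment ran from 5.78 to 9.34 in untreated cells, from 4.87 to 12.1 with TGF-β, and with the siRNA sets from 4.97 to 11.7 and from 5.17 to 8.40. The counts were small, between 15 and 42 fragments, and their intervals cover counting error only.

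**Figure D2:**
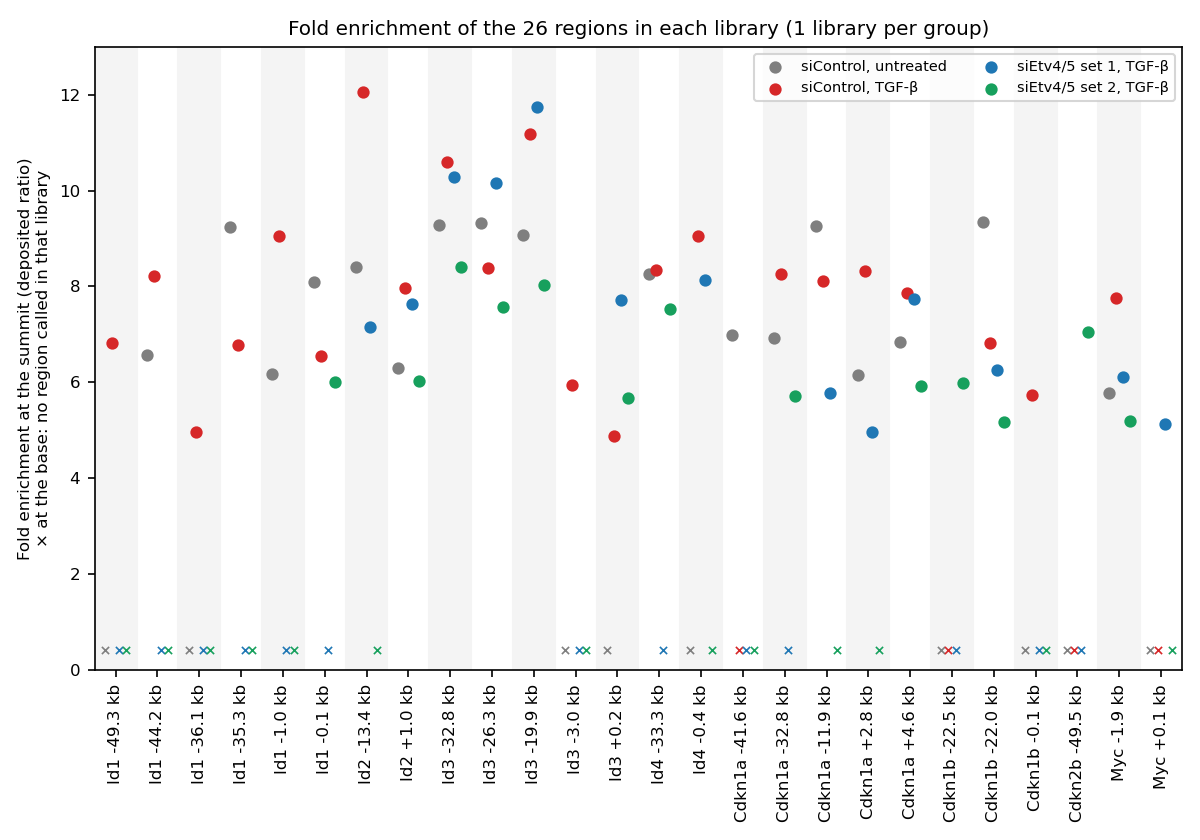
Deposited fold enrichment at the summit of each of the 26 member regions (vertical axis, linear ratio) in each library, named by gene and distance from its TSS, with a cross at the base where no region was called. The Id2 region 13383 bp upstream reaches 12.1 with TGF-β and has no call with set 2, and the 3 upstream regions of Id3 have a point in every library.

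Id1 encodes the Id protein best known as a BMP target. Its region 1.0 kb upstream (chr2:152735127-152735306, intergenic) had a fold enrichment of 6.17 in untreated cells and 9.06 with TGF-β, from 25 and 36 fragments, and was called with neither siRNA set. The fold enrichment was 1.47 times as high with TGF-β, and 92.6% of all regions called in both libraries had a smaller ratio. Over the estimated depth of each library (depth-scaled fragments) the ratio was 1.35, with a 95% Clopper-Pearson counting interval of 0.790 to 2.35 that includes 1, so the difference was within counting error. If the local background scaled with depth and the p-value alone decided a call, 17 fragments would have been needed with set 1 and 18 with set 2. The set 1 library then held at most 0.419 times the depth-scaled fragments of the siControl library with TGF-β (interval 0.217 to 0.774), and the set 2 library at most 0.372 times (0.196 to 0.679). Both intervals lie below 1, as they do for 16.9% of all regions absent with set 1 and 46.9% of those absent with set 2. No other member had that property in both siRNA comparisons, which share the TGF-β list. The intervals do not allow for the choice of regions called in that list and missing in the other.

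The region at the Id1 TSS (0.1 kb upstream, chr2:152736115-152736282, reaching into the 5′ UTR) had a lower value with TGF-β than without. Its fold enrichment was 8.09 in untreated cells, 6.54 with TGF-β and 6.01 with set 2, from 34, 26 and 25 fragments, and it was not called with set 1. The ratio of TGF-β to untreated was 0.809 in fold enrichment and 0.718 in depth-scaled fragments (0.414 to 1.23), again within counting error. Both Id1 promoter regions were thus called in both siControl lists, and no difference between those lists was beyond counting error.

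The other Id1 regions lay 35.3 to 49.3 kb upstream in introns of the neighbouring gene H13 and none was called with either siRNA set. The region 35.3 kb upstream had 9.24 in untreated cells and 6.77 with TGF-β (30 and 21 fragments). The region 44.2 kb upstream had 6.57 and 8.22 (17 and 20 fragments). The regions 49.3 kb upstream, 85 bp before the TSS of Mcts2, and 36.1 kb upstream were called with TGF-β alone, at 6.83 and 4.97 (18 and 15 fragments). For these 4, a call with set 1 needed 12 to 15 fragments beside the 15 to 21 seen with TGF-β, and the counting interval of the highest uncalled ratio included 1 for each.

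Of 607 protein-coding windows with 6 regions in the TGF-β list, 2 had none with set 1, those of Id1 and Trps1, and the median among them was 5. With set 2, where Id1 kept 1 region, 11.4% of these windows had as few. The number 6 was the count of Id1 itself in the TGF-β list, so these shares describe its window and do not test it. Outside the window, the nearest regions were the same in all 4 libraries, about 66.8 kb upstream and 5.24 kb downstream of the Id1 TSS, so that set 1 had no region over 71.9 kb. The upstream one had 9.26, 9.61, 7.02 and 6.93 in the order untreated, TGF-β, set 1 and set 2, from 22, 26, 19 and 21 fragments. The downstream one had 5.59, 8.21, 5.00 and 6.37, from 25, 37, 20 and 28 fragments. Both were thus called with set 1 at a lower level than in the TGF-β list. For the downstream one the ratio with set 1 was 0.609 in fold enrichment, past the 1.5-fold limit, and 0.509 in depth-scaled fragments (0.280 to 0.900), an interval below 1. For the upstream one they were 0.730 and 0.688 (0.360 to 1.29), within counting error. With the lists cut to equal length the Id1 window held 3, 1, 0 and 1 regions, so that the difference between TGF-β and set 1 was then 1 region.

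**Figure D3:**
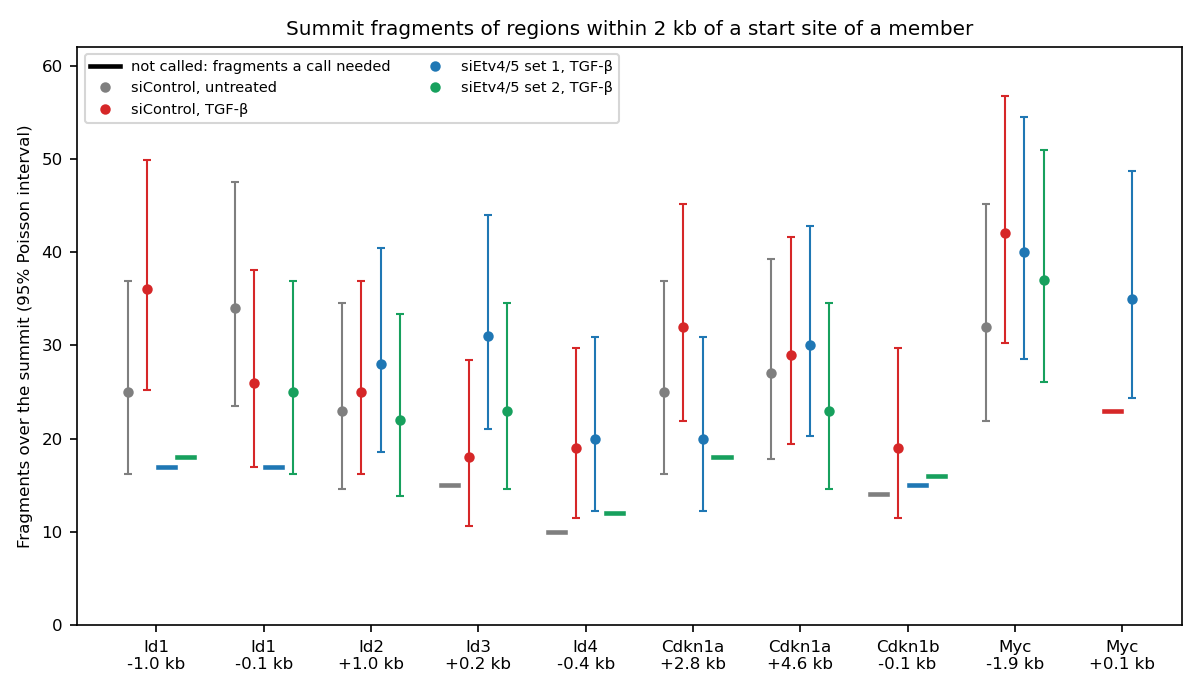
Fragments over the summit (vertical axis, counts) of the 10 regions within 2 kb of a TSS of a member, by library, with exact 95% Poisson intervals. A short bar marks the number of fragments a call would have needed in a library without one. The region at the Myc TSS has no bar for untreated cells or set 2, where that number was not computed. At Id1 1.0 kb upstream the TGF-β library has 36 fragments and the needed numbers are 17 and 18 with the siRNA sets, whereas at Cdkn1b the interval of the TGF-β library reaches down to all 3 bars and at Id4 to that of set 2 but not to that of untreated cells.

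Id2 had 2 regions. The promoter region (chr12:25096085-25096299, 84 bp before a second annotated TSS and overlapping the 5′ UTR of the longer transcript) was called in every library. Its fold enrichment was 6.29, 7.97, 7.63 and 6.03, from 23, 25, 28 and 22 fragments. Scaled to depth, these ran from 1.06 fragments per M reads with set 2 to 1.62 with set 1. With set 2 the ratio to siControl with TGF-β was 0.693 (0.373 to 1.28), within counting error. The region 13383 bp upstream (chr12:25110399-25110642, intergenic, with an AP-1 site 10 bases from its summit) varied most. Its fold enrichment was 8.41 in untreated cells, 12.1 with TGF-β and 7.15 with set 1, from 17, 25 and 15 fragments, and it was not called with set 2. The ratio was 1.43 with TGF-β and 0.593 with set 1, and 1.94% of all regions had a lower ratio with set 1. In depth-scaled fragments the same ratios were 1.38 (0.717 to 2.73) and 0.565 (0.277 to 1.11), both within counting error. With set 2 a call needed 11 fragments by its p-value alone, and on that basis the ratio was at most 0.315 (0.135 to 0.679), an interval below 1.

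Id3 had 3 upstream regions in intergenic DNA that every library called. At 32.8 kb upstream (chr4:136110569-136110881) the fold enrichment was 9.29, 10.6, 10.3 and 8.40, in the order untreated, TGF-β, set 1 and set 2. At 26.3 kb upstream (chr4:136117122-136117530) it was 9.33, 8.39, 10.2 and 7.57, and at 19.9 kb upstream (chr4:136123472-136123682) it was 9.08, 11.2, 11.7 and 8.04. Each of the 3 had its lowest value with set 2, a list in which 10.6% of all regions called in both were higher than with siControl and TGF-β. The log2 ratios in that comparison were -0.34, -0.15 and -0.48, beside a median of -0.38 over all regions. Each of the 3 also held an AP-1 site within 300 bases, beside 52.6% of all distal regions. The fragments were 18, 23, 22 and 22 for the first, 21, 21, 27 and 20 for the second, and 19, 27, 29 and 19 for the third, and no ratio between the libraries compared had an interval without 1.

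The Id3 promoter region (0.2 kb downstream of the TSS, chr4:136143595-136143825, in the 5′ UTR) was not called in untreated cells and had 4.87 in siControl cells with TGF-β and 7.71 and 5.68 with the 2 siRNA sets, from 18, 31 and 23 fragments. It was the single member region past 1.5-fold higher with set 1, at 1.58-fold, and 99.8% of all regions had a lower ratio. Its 4.87 was the lowest fold enrichment of any member region in the TGF-β list. Keeping only regions called in both lists favours higher ratios from so low a start, and the part of this was not tested. The Id3 promoter was also the single member region with a higher fold enrichment with set 2 than with siControl, at 1.17-fold. The depth-scaled fragments differed by 1.62 times with set 1 (0.879 to 3.08) and by 1.01 times with set 2 (0.520 to 1.98), within counting error. In untreated cells a call needed 15 fragments, and the ratio allowed by 14 had an interval of 0.381 to 1.76. A further region 3.0 kb upstream was called with TGF-β alone, at 5.95 from 18 fragments.

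Id4 had a promoter region (0.4 kb upstream, chr13:48260786-48260934) that was called with TGF-β at 9.05 and with set 1 at 8.14, from 19 and 20 fragments, and in neither other library. A call needed 10 fragments in untreated cells and 12 with set 2, and the intervals of the ratios so allowed, 0.201 to 1.17 and 0.196 to 1.01, both included 1. The region 33.3 kb upstream (chr13:48227795-48228023, in introns of 2 noncoding genes) had 8.27 in untreated cells, 8.34 with TGF-β and 7.54 with set 2, from 17 fragments in each, and was not called with set 1. With set 1 a call needed 11 fragments, and the interval of the ratio so allowed, 0.227 to 1.28, included 1. Each region of the pair was thus called with 1 siRNA set and not with the other. The bounds placed neither absence beyond counting error. They cannot show an absence to be within it, since the fragments present are unknown.

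Cdkn1a encodes p21, an inhibitor of cyclin-dependent kinases induced by p53 and by TGF-β. None of its regions lay at the annotated start of the gene, and 2 lay within 2 kb of other TSSs of its transcripts. The region 2.8 kb downstream (chr17:29093636-29093796, 41 bp before a second Cdkn1a TSS) had 6.15 in untreated cells, 8.32 with TGF-β and 4.97 with set 1, from 25, 32 and 20 fragments, and was not called with set 2. It was 1.35 times as high with TGF-β and 0.597 times with set 1, and 2.06% of all regions had a lower ratio in the latter. The ratios in depth-scaled fragments were 1.20 (0.690 to 2.12) and 0.589 (0.319 to 1.06), within counting error. If the p-value alone decided a call, the ratio allowed by the missing call with set 2 was at most 0.418 (0.218 to 0.776).

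The intronic region 4.6 kb downstream (chr17:29095403-29095694), 1074 bp before the unclassified transcript AC167363.2, was called in all 4 libraries. It had 6.83, 7.85, 7.75 and 5.93 from 27, 29, 30 and 23 fragments, a ratio of 0.986 with set 1 and 0.754 with set 2. The region 11.9 kb upstream (chr17:29078969-29079196) lay 55 bp inside Trp53cor1, the gene of a long noncoding RNA known as lincRNA-p21. It had 9.27, 8.12 and 5.78 in untreated cells, with TGF-β and with set 1, from 25, 19 and 15 fragments, and no call with set 2. Both steps were downward and both were within counting error, at 0.714 (0.372 to 1.35) and 0.743 (0.352 to 1.54) in depth-scaled fragments. The region 32.8 kb upstream, 191 bp inside the gene AC167363.1, had 6.93 in untreated cells, 8.26 with TGF-β and 5.71 with set 2, from 18, 21 and 17 fragments, and no call with set 1. The region 41.6 kb upstream was called in untreated cells alone, at 6.98 from 20 fragments.

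Cdkn1b encodes p27, an inhibitor of the same kinases that holds cells in quiescence. Its promoter region (0.1 kb upstream, chr6:134920284-134920439) was called with TGF-β alone, at 5.74 from 19 fragments. A call needed 14, 15 and 16 fragments in untreated cells, with set 1 and with set 2, and the intervals of the ratios so allowed all included 1. The other 2 regions of this window lay at the divergent promoter of Gpr19 and 2810454H06Rik, 22.0 and 22.5 kb upstream. One of them (chr6:134898305-134898524) was called in all 4 libraries, at 9.34, 6.83, 6.26 and 5.17 from 24, 18, 17 and 16 fragments, and the differences were within counting error in each comparison. The other was called with set 2 alone, at 5.99.

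Cdkn2a and Cdkn2b lie side by side on chromosome 4 and encode the INK4 inhibitors p16 and p15, the latter a classical target of TGF-β in epithelial cells. Neither had a region at its promoter or in its body in any library. The one call in their windows lay 49.5 kb upstream of Cdkn2b (chr4:89360437-89360579), with set 2 alone, at 7.06 from 17 fragments. No region was called across 168 kb spanning both genes in the untreated, TGF-β and set 1 lists, and across 102 kb with set 2. Yet the surrounding DNA was not poor in regions, with 48, 60, 51 and 40 in the 4 libraries within 500 kb of the pair on either side. Those regions sat on a high local background, with a median of 3.77, 3.70, 3.24 and 2.63 times the genome-wide floor beside 1.57, 1.55, 1.52 and 1.52 over all regions, whereas the region 49.5 kb upstream of Cdkn2b sat at 1.12 times the floor with set 2. Peak lists do not show whether DNA without a call was closed, and the cause of the stretch without calls was not tested. No region in any of the 4 libraries was found in 27.1% of all protein-coding windows, and Cdkn2a was the one member among them.

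Myc encodes the transcription factor whose repression is part of the TGF-β response in epithelial cells. The region 1.9 kb upstream (chr15:61983407-61983709, intergenic, 223 bp before the unclassified transcript Gm37947) was called in all 4 libraries, at 5.78, 7.77, 6.10 and 5.19 from 32, 42, 40 and 37 fragments. The ratio was 1.34 for TGF-β and 0.785 and 0.668 for the siRNA sets, and in depth-scaled fragments 1.23 (0.760 to 2.02), 0.897 (0.567 to 1.42) and 0.694 (0.434 to 1.11), all within counting error. A region at the Myc TSS itself (chr15:61985458-61985591, in the 5′ UTR) was called with set 1 alone, at 5.12 from 35 fragments. With TGF-β a call needed 23 fragments, and the interval of the ratio so allowed, of TGF-β to set 1, was 0.373 to 1.17 and included 1. The Myc regions sat on a local background of 3.92 to 4.87 times the genome-wide floor, higher than that of at least 98.4% of all regions in each library, so that 35 fragments gave a lower fold enrichment here than 17 did at Id2. The part of the background in these values was not tested.

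With TGF-β against untreated siControl cells, 23 member regions were called in either list. Both lists held 16 of them, beside 55.2% of all regions. TGF-β alone held 6, beside 32.3% of all regions, and untreated cells alone held 1, beside 12.5%. The 6 were the promoter regions of Id3, Id4 and Cdkn1b, 2 upstream regions of Id1 and 1 of Id3, and the 1 was at Cdkn1a. No member region had moved past 1.5-fold, where 5.92% of all regions called in both were higher and 0.924% lower. The median log2 ratio of fold enrichment was 0.23 (11 higher and 5 lower) beside 0.12 over all regions, and of depth-scaled fragments 0.08 beside 0.13. The local background around the members moved with this difference, being lower with TGF-β in 13 of the 16 regions, with a median log2 ratio of -0.21, beside 50.1% of all regions. Regions of the same locus share part of that background, and its part in the result was not tested. With lists of equal length 1 member region was gained and 6 were lost, so the direction of this count depended on how long the lists were.

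With set 1 against siControl, both with TGF-β, 12 of 23 regions were called in both lists, beside 59.3% of all regions. The siControl list alone held 10, beside 30.1%, of which 6 were the regions of Id1 and 1 each belonged to Id3, Id4, Cdkn1a and Cdkn1b. Set 1 alone held the region at the Myc TSS, beside 10.7%. Past 1.5-fold, the Id3 promoter was higher, beside 0.557% of all regions, and the regions of Id2 13383 bp upstream and Cdkn1a 2.8 kb downstream were lower, beside 6.6%. The median log2 ratio was -0.09 (3 higher and 9 lower) beside -0.16 over all regions. Outside Id1 the siControl list alone held 4. For 1 of the 10 absent regions, the Id1 region 1.0 kb upstream, the interval of the allowed ratio lay below 1, beside 16.9% of all regions absent with set 1. With lists of equal length 3 were absent and 4 were new.

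With set 2 against siControl, 11 of 24 regions were called in both lists, beside 44.1% of all regions, and 11 in the siControl list alone, beside 50.9%. Set 2 alone held 2, at Cdkn1b and Cdkn2b, beside 5.04%. No member region was past 1.5-fold in either direction, beside 0.0901% of all regions higher and 24.2% lower. The median log2 ratio was -0.40 (1 higher and 10 lower) beside -0.38 over all regions. For 3 of the 11 absent regions, those of Id1 1.0 kb upstream, Id2 13383 bp upstream and Cdkn1a 2.8 kb downstream, the interval of the allowed ratio lay below 1, beside 46.9% of all regions absent with set 2. With lists of equal length 3 were absent and 8 were new. Among the regions called in both libraries of a comparison, no member had an interval of its ratio in depth-scaled fragments without 1, with 0 of 16, 0 of 12 and 0 of 11 in the 3 comparisons.

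**Figure D4:**
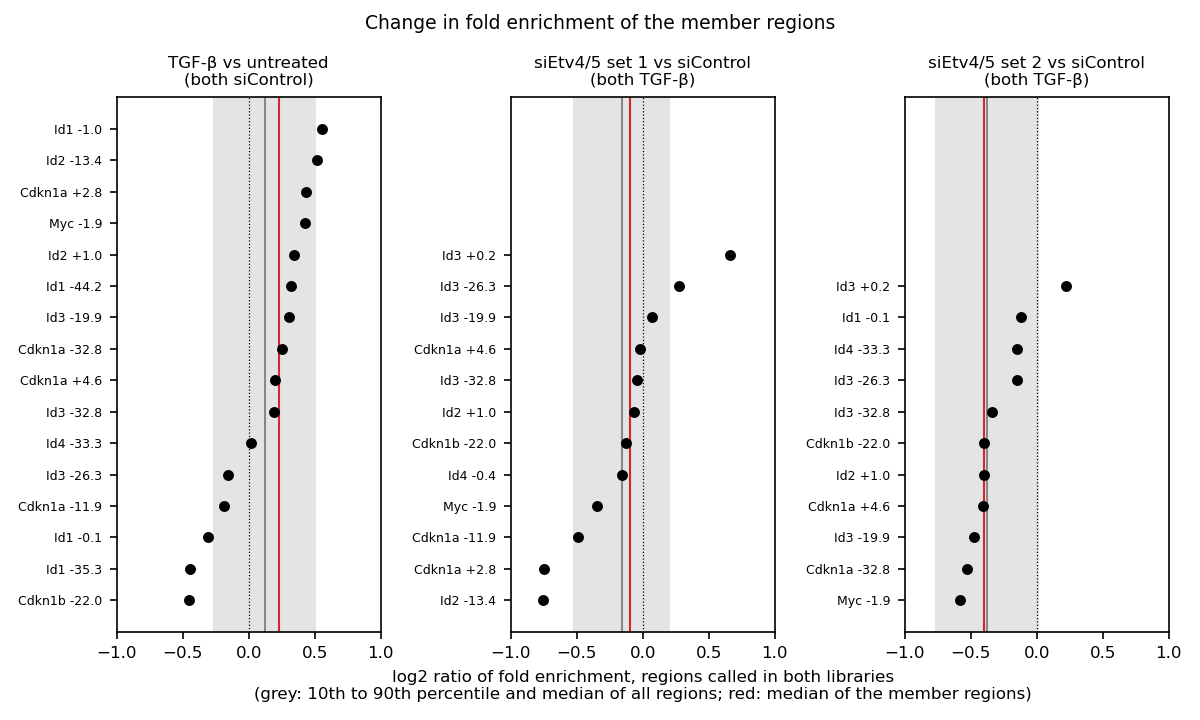
Log2 ratio of fold enrichment (horizontal axis) of the member regions called in both libraries of each comparison, numbering 16 with TGF-β, and 12 and 11 with the siRNA sets. The grey band and line are the 10th to 90th percentile and the median of all regions. The red line is the median of the members. The medians lie close together, at -0.40 and -0.38 with set 2. The Id3 promoter, with the lowest member value in the TGF-β list, stands to the right of the band in both siRNA panels.

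Promoter regions were called for the most members in the TGF-β list, the longest of the 4. Of the 9 genes, 4 had a region within 2 kb of a TSS in untreated cells (Id1, Id2, Cdkn1a and Myc), 7 with TGF-β (all but Cdkn2a and Cdkn2b), 5 with set 1 (Id2, Id3, Id4, Cdkn1a and Myc) and 5 with set 2 (Id1, Id2, Id3, Cdkn1a and Myc). Over 21911 protein-coding genes the shares were 36.1%, 38.1%, 34.1% and 27.3%. Id1 was missing with set 1 and Id4 with set 2, and Cdkn1b had a promoter region in the TGF-β list alone.

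A list of 25 other genes of the same pathway, comprising further kinase inhibitors, kinases, cyclins, pocket proteins and E2F factors, partners of Myc and Smads, and the E proteins that Id proteins bind, was examined at promoters only. A promoter region was called for 15, 16, 15 and 11 of them in the order untreated, TGF-β, set 1 and set 2, with 11 in all 4 libraries and 9 in none. With TGF-β the fold enrichment was higher in 10 and lower in 5 of the 15 called in both lists, with a median log2 ratio of 0.18, and none moved past 1.5-fold. Of all regions called in both lists, 65.4% were higher, with a median of 0.12. The largest were Rbl2, a pocket protein that restrains E2F factors (7.65 and 10.8, log2 ratio 0.50), and E2f5, a repressive E2F (5.43 and 7.68, 0.50), followed by Cdc25a, a phosphatase that activates cyclin-dependent kinases (10.7 and 12.9, 0.27). The promoter of Ccne1, which encodes cyclin E, was called with TGF-β at 8.09 and not in untreated cells. With set 1 the list had 5 higher and 10 lower (median -0.13), beside 28.5% of all regions higher and a median of -0.16. With set 2 it had 1 higher and 10 lower (median -0.12), beside 10.6% and -0.38. These counts were near those over all regions, whereas the median with set 2 was less negative than that over all regions. All regions include distal ones, and no comparison with promoters alone was made. Past 1.5-fold with either siRNA set was 1 promoter of the list, that of the cyclin gene Ccnd3 with set 2 (11.5 and 6.96), named after its values were seen. It was 1 of 11 called in both lists, beside 24.2% of all regions past 1.5-fold lower with set 2.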

How the data were processed

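FAIRE-seq libraries of EpRas cells had been sequenced on an Ion Proton and mapped to mm10 by the authors. They called peaks with MACS2 (2.1.0 in the submitters' notes) at a q-value of 0.0001. The methods of the study name an earlier version of MACS2. The deposited lists give per peak a fold enrichment, a ratio made by the authors, beside its significance at the summit. The latter is a -log10 p-value and a deposited -log10 q-value, both written by the caller of the authors. A deposited score derived from the q-value was not used. The study describes biological replicates, and whether the deposited lists pool them is not given in the sources used here.

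The members and gene lists were chosen with earlier results of these data known. Groups came from the sample labels, with 1 list each. All regions of the 9 members are given by count; those within 2 kb of a member's TSS, those called in all 4 libraries and, per comparison, the 5 of highest fold enrichment called in 1 library alone are given in full. Of the pathway list, at most 6 genes with the largest ratio, or a promoter region in 1 siControl list alone, were named.

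Summit fragments and local background were solved from the ratio, with a pseudocount of 1, and the Poisson p-value. Fragments came out whole, within 0.05, in 100% of peaks. Depth was the genome-wide floor of the background times an assumed 1.87 Gb over the fragment length. Peaks overlapping by at least 1 bp were merged into regions, and each library was represented by its peak of lowest q-value. Fragments had exact 95% Poisson intervals and ratios Clopper-Pearson intervals, all for counting error only. The fragments a call needed were those that reach the lowest deposited -log10 p-value of that library over the local background of the library with the call, scaled by their floors. The width of a peak was not part of this, so the allowed ratios are bounds only if the p-value alone decided a call. A ratio is called past the fold at 1.5. All peaks lay inside the GRCm38 chromosomes. Genes and TSSs were from GENCODE vM21 (basic), and sequences from RefSeq GRCm38. Scripts used Python 3.11.15, pandas 2.3.3, SciPy 1.17.1 and pysam 0.24.0, and were tested on simulated data.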

Additional observations from a re-analysis of the deposited data

How the results depend on the processing

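No paired analysis was possible because each group has 1 list, and no library could be left out of a group for the same reason. A q-value limit 100 times stricter left 25 member regions and kept all counts within 1.5 times, as did an overlap of 50% of the shorter peak. With lists of equal length the count with TGF-β was 8 and that called in all 4 libraries 4, regions gained and lost with TGF-β were 1 and 6, absent and new with set 1 were 3 and 4, and with set 2 were 3 and 8. With 10 kb upstream, the counts in the order untreated, TGF-β, set 1 and set 2 were 6, 10, 7 and 5, with 3 in all 4, 0 lost with TGF-β, 4 absent with set 1, and 5 absent and 0 new with set 2. With 100 kb upstream they were 26, 34, 23 and 20, with 11 in all 4, 11 gained and 3 lost with TGF-β, and 17 absent with set 2. With 50 kb on both sides they were 30, 39, 25 and 20, with 13 in all 4, 12 gained and 3 lost, and 22 absent with set 2. The windows set these counts by their own width, and the equal lists by taking fewer regions from the longer lists. The 3 median log2 ratios kept their sign under all 18 alternatives run on them and moved by less than their counting error. The half-width of that error was 0.27 beside a median of 0.23 in the TGF-β comparison. It was 0.30 beside -0.09 in that of set 1, and 0.32 beside -0.40 in that of set 2. In the first 2, the median was itself smaller in size than that error, so a move of its full size would have passed. The lowest and highest over all settings, the main one included, were 0.08 and 0.38 for TGF-β, -0.14 and -0.05 for set 1, and -0.51 and -0.40 for set 2. Depth limits these values, since a member summit rests on 15 to 42 fragments.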
